A study of Mus musculus with 6 samples.

Results

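A set of genes was examined that cardiomyocytes (CMs) are known to switch on or raise under load and injury. They are the small proline-rich gene Sprr1a, the natriuretic peptide genes Nppa and Nppb, the muscle ankyrin repeat genes Ankrd1 and Ankrd2, the Xin genes Xirp1 and Xirp2, and the muscle LIM protein gene Csrp3, 8 of the 23337 genes in the count table. The members were chosen on their measured values in an earlier reading of the same SRF-OE and GFP libraries and for their known roles, so their differences between the groups are a description here, and calls of the fit over all genes are given for them without being read as a test. Wildtype mouse pups of a mixed background received AAV9 at postnatal day 1 (P1), at 5e8 vector genomes (vg) per g, carrying either SRF with a 2A-linked GFP (SRF-OE) or GFP alone (GFP), both driven by the cardiac troponin T promoter. This dose transduces CMs in a mosaic, and GFP+ CMs were sorted at P14 after collagenase perfusion of the heart, from which the study's methods take the apex, for polyA RNA-seq with SMART-Seq and Nextera libraries. Both groups therefore carry virus and GFP, and only SRF-OE carries the SRF transgene. The study asked whether more SRF promotes or disturbs CM maturation.

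As background, the heart releases the peptides encoded by Nppa and Nppb when its walls are stretched, and the ventricles switch Nppa largely off after birth while the atria keep it. The proteins made from Ankrd1, Csrp3 and the Xin genes sit at the Z-disc, on titin or at the intercalated disc, where force passes through the CM, and their loss or excess is linked to cardiomyopathy. Sprr1a encodes a precursor of the cornified envelope, the tough outer layer of skin cells, and is also known from CMs under stress and from gp130 cytokine signalling. SRF itself binds a DNA element called the CArG box and drives many muscle genes.

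The labels list 3 SRF-OE and 3 GFP libraries, but the column headed SRF-OE replicate 1 holds gene lengths and not counts, so 2 SRF-OE and 3 GFP libraries were used. Total counts ranged from 14137433 to 23159631. Values are given as CPM (counts scaled to a common library size) with edgeR's TMM factors. Srf, the overexpressed gene, was at 360 and 748 CPM in SRF-OE replicates 2 and 3, at 67.3 and 85.1 CPM in GFP replicates 2 and 3, and at 338 CPM in the library labelled GFP1. That library thus goes against its label for Srf. It was kept in the GFP group, and the members' fitted fold changes are given with and without it. The column of gene symbols is headed Chr, so that heading does not match its content either. Whether the header is displaced by 1 column could not be settled from the table. A displacement would change the library that a column of counts belongs to. If each label belonged 1 column further right, the column headed GFP1 would hold SRF-OE replicate 3. Group means and fold changes with the 5 libraries would then count an SRF-OE library as GFP. All groups, group means and replicate numbers follow the header as it stands. Summed CPM of 8 cardiomyocyte markers, led by Myh6, was 98213 and 87282 in SRF-OE and ranged from 104544 to 158106 in GFP, and the ventricular markers, led by Myl2, summed to 4780 to 6282 in all libraries. Genes of other cells were present at low levels in every library: sums of 12 endothelial markers, led by Kdr, were 401 to 1033 CPM, of 10 fibroblast markers, led by Col3a1, 391.6 to 945 CPM, of 9 smooth muscle and pericyte markers, led by Smtn, 484 to 738 CPM, and of 8 leukocyte markers, led by Lyz2, 10.4 to 32.5 CPM. The highest endothelial, fibroblast, smooth muscle and leukocyte sums were all in SRF-OE replicate 2. Single genes of the smooth muscle and pericyte list did not share that order. Smtn was highest in GFP replicate 3 (439 CPM) and Tagln in SRF-OE replicate 3 (83.5 CPM). Pdgfrb was highest in the library labelled GFP1 (64.5 CPM) and Rgs5 in SRF-OE replicate 2 (70.4 CPM). In such bulk samples, fewer cells of a type and less RNA per cell cannot be told apart.

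The promoters of these genes were read from RefSeq (GRCm38.p6, the build named mm10 in the submitters' notes), from 250 bases before to 50 bases after each start, and 8 promoters of 7 members matched. Sprr1a and Nppa are shown because they had the highest log2 fold changes with the 5 libraries. The windows lie at chr3:92485902-92486131 on the minus strand, from 250 to 21 bases before the Sprr1a start, and at chr4:148000472-148000721 on the plus strand, the 250 bases before the Nppa start. Capitals mark the matches of 3 motifs: TGANTCA, the AP-1 motif, on both strands, TATAAA on the gene's strand, and the CArG box with 1 mismatch allowed, on both strands.
Sprr1a: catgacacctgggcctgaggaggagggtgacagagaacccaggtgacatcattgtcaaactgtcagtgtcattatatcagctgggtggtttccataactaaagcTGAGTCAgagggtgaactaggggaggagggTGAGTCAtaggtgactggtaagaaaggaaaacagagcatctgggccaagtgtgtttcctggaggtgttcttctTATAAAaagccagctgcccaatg
Nppa: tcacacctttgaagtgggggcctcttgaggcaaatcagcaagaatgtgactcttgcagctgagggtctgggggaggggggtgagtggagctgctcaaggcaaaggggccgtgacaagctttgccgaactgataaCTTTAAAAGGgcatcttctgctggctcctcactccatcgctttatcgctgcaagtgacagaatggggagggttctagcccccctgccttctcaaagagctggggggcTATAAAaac
The Sprr1a window holds 2 AP-1 matches, at positions -146 and -116 from the start, and TATAAA at -43. In Nppa the only CArG match has 1 mismatch and lies at -116, and TATAAA lies at -9. The AP-1 motif is in 7.81% of the 32851 promoters of that length, and the promoters of Sprr1a and Xirp2 are the 2 of 8 member promoters that hold it. An exact CArG box is in 1.63% of all promoters and in 0 of 8 member promoters, and with 1 mismatch allowed it is in 19.9% of all and in 3 of 8, those of Nppa, Ankrd2 and 1 of the 2 of Csrp3. In Ankrd2 it overlaps TATAAA.

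For Nppb and Ankrd1 the stretches around CATTCC, the M-CAT motif bound by TEAD factors, are shown, because Ankrd1 was, with Nppa, a member whose groups did not overlap, and Nppb shares the motif. Both genes carry it on the other strand, where it reads GGAATG on the gene's strand. The window of Nppb is chr4:147985792-147985821 on the plus strand, and those of Ankrd1 are chr19:36120035-36120064 and chr19:36119948-36119977 on the minus strand. Capitals mark these M-CAT letters and the match of a GATA factor motif, which is spelled AGATAA and was searched on both strands.
Nppb: gcaGGAATGcagctgataaatcagAGATAA
Ankrd1, distal: cactgccaaaGGAATGaccctctcacattt
Ankrd1, proximal: cactaagtctGGAATGaaaattcacctgcc
M-CAT matches lie at -105 in the Nppb promoter and at -210 and -123 in that of Ankrd1, and AGATAA at -84 in Nppb. The motif is in 14.7% of all promoters and 2 of 8 member promoters, and AGATAA in 11.2% and in the same 2, Nppb and Ankrd1. TATAAA is in 8.32% of all promoters and in 4 of 8, those of Sprr1a, Nppa, Nppb and Ankrd2. The promoter starts used for Nppb and Ankrd2 lie inside the gene positions given below, so the Nppb window lies within its gene. The Nppb and Ankrd1 windows overlap annotated exons, those of Sprr1a and Nppa do not, and gene positions given below are of the same build. These are matches of letters in a window and say nothing of binding.

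Sprr1a (chromosome 3, 92483954 to 92485881, minus strand, a protein-coding gene) was nearly silent in 2 of the GFP libraries and clearly transcribed in the other 3 libraries. It had 355 counts in SRF-OE replicate 2 and 2545 in SRF-OE replicate 3, against 5 in GFP replicate 2 and 0 in GFP replicate 3, and the library labelled GFP1 had 697. On the CPM scale these counts are 20.5, 111, 0.229, 0 and 33.1. Both SRF-OE libraries were far above GFP replicates 2 and 3, and the library labelled GFP1 lay between the SRF-OE libraries, whereas for Srf it was below both, nearer to SRF-OE replicate 2. SRF-OE replicate 2 was 89.5 times GFP replicate 2 in CPM (95% interval 38.0 to 277, counting error only), and SRF-OE replicate 3 was 485 times that library (208 to 1495). Against GFP replicate 3, taken at a floor of 3 counts, the SRF-OE libraries were 86.7-fold and 470-fold higher. These are not lower limits, since the 95% upper limit for 0 counts in that library is 3.69 counts. The library labelled GFP1 was itself 144 times GFP replicate 2 (61.6 to 446).

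The groups overlapped for Sprr1a once the library labelled GFP1 was counted with GFP. Mean CPM in SRF-OE was 65.9 ± 64.2 (SD, n = 2), and in GFP it was 11.1 ± 19.1 (SD, n = 3). The fitted log2 fold change was 2.54 (standard error 1.73) with the 5 libraries and 8.79 (standard error 1.27) without the library labelled GFP1. The 2 SRF-OE libraries also differed from each other by 2.43 on the log2 scale, and 0.106% of the 8523 genes with a mean of at least 10 CPM differed by as much in that direction. Among the GFP libraries the SD of log2 CPM was 4.40, and 0.047% of those genes had an SD at least as large.

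The rest of the Sprr and cornified envelope family was hardly detected. Of 17 other genes listed, 16 were in the table, 6 of them had 0 counts in all 5 libraries, and only Sprr2g had enough counts to be tested, at 0.405 and 2.54 CPM in SRF-OE, 0.618 CPM in the library labelled GFP1 and 0 in GFP replicates 2 and 3. Lor and Ivl, the classical envelope proteins loricrin and involucrin, were at most 0.874 and 0.116 CPM. The 16 genes summed to 1.56 and 3.89 CPM in SRF-OE and 0.321 to 1.19 CPM in GFP, far below Sprr1a in the libraries where it was high. In fold change Sprr2g was not apart from Sprr1a. With the 5 libraries its log2 fold change was 2.70 (standard error 1.33), beside 2.54 for Sprr1a.

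Krt18 and Krt8, keratins of simple epithelium, had the same order of libraries as Sprr1a, while Krt5 and Krt14, keratins of stratified epithelium, were at or near 0. Krt18, the most abundant of 8 epithelial markers, was at 79.2 and 394 CPM in SRF-OE, 153 CPM in the library labelled GFP1, and 3.44 and 3.24 CPM in GFP replicates 2 and 3. Krt5 had 0 counts in all 5 libraries, and Epcam, Cdh1 and Krt14 were at most 0.316 CPM in any library, while Trp63, a basal cell factor, was at 2.52 to 6.43 CPM. Krt19, another simple epithelial keratin, had a different order, with 2.08 and 0.262 CPM in SRF-OE and 0.190, 0.596 and 0.079 CPM in GFP replicates 1, 2 and 3. The 8 markers summed to 97.1 and 453 CPM in SRF-OE and 7.26 to 187 CPM in GFP, with Krt18 and Krt8 making up most of each sum. The part of epithelial cells in the Sprr1a difference was not tested.

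By profile over the 5 libraries, the genes most like Sprr1a among 13753 compared were Rtl1, Sypl2, Serpinb9b, Procr and Tnnt3. Likeness was measured as the root mean square difference between log2 CPM values, each gene centred on its own mean, and it ran from 0.63 for Rtl1 to 1.13 for Tnnt3. Rtl1, an imprinted gene derived from a retrotransposon, was at 13.1 and 58.9 CPM in SRF-OE, 38.0 CPM in the library labelled GFP1, and 0.275 and 0.079 CPM in GFP replicates 2 and 3. Procr, the endothelial protein C receptor, was at 18.3 and 187 CPM in SRF-OE, 86.1 CPM in the library labelled GFP1, and 0.275 and 0.710 CPM in the other GFP libraries. Sypl2, a protein of the skeletal muscle triad, and Tnnt3, fast skeletal troponin T, followed the same order with peaks of 136 and 22.6 CPM in SRF-OE replicate 3. Serpinb9b, a serine protease inhibitor, reached 30.3 CPM in that library and had 0 counts in GFP replicates 2 and 3. All 5 share with Sprr1a the high level in the library labelled GFP1, and the 12 skeletal muscle markers, led by Tnnt3, summed to only 16.8 and 37.9 CPM in SRF-OE and 7.81 to 35.5 CPM in GFP. No other member came near the Sprr1a profile, the closest being Nppa at 3.22.

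**Figure D1:**
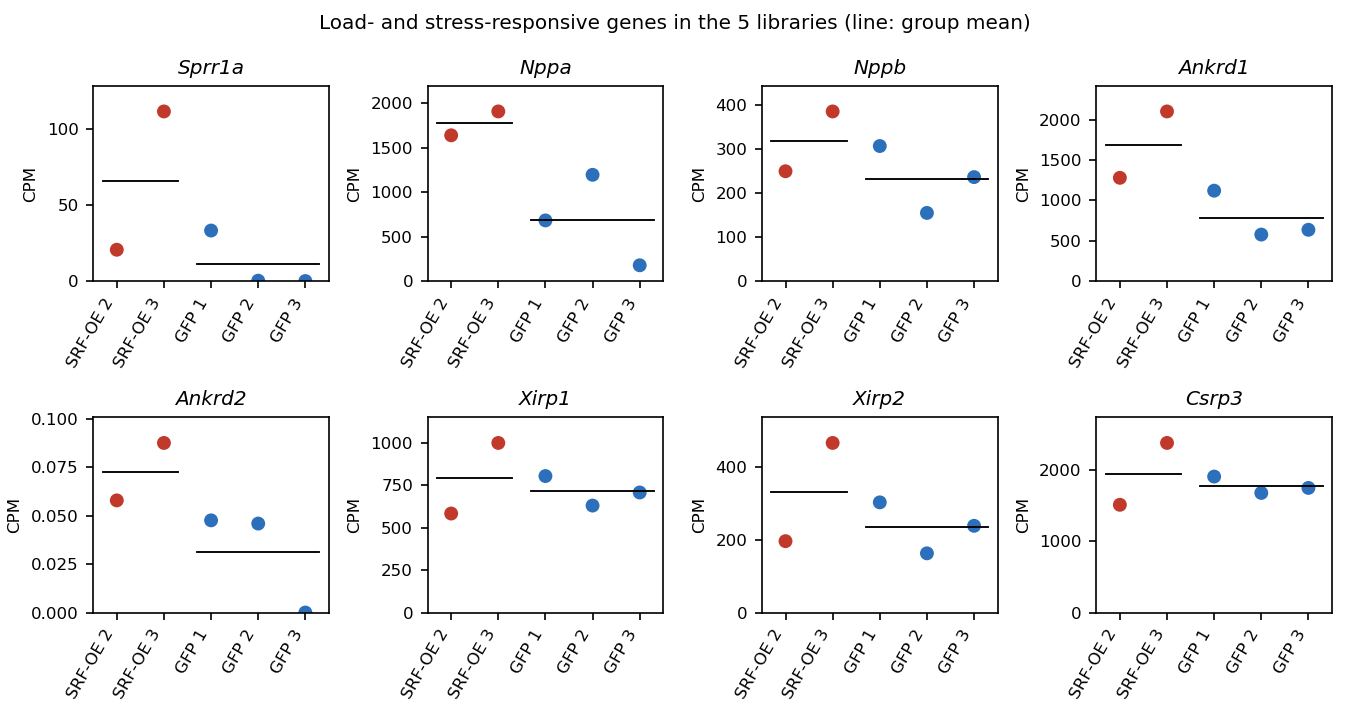
Each panel plots 1 gene, with CPM on the vertical axis starting at 0, SRF-OE libraries in red, GFP libraries in blue and the group mean as a line. SRF-OE replicate 3 is the highest library in every panel, and the Sprr1a and Ankrd1 points of the library labelled GFP1 lie well above those of GFP replicates 2 and 3, at 33.1 and 1121 CPM.

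Nppa, which encodes atrial natriuretic peptide, was higher in both SRF-OE libraries than in any GFP library, but the GFP libraries spread widely. The gene (chromosome 4, 148000722 to 148002074, plus strand) was at 1641 and 1910 CPM in SRF-OE replicates 2 and 3, and at 683, 1196 and 177 CPM in GFP replicates 1, 2 and 3. The groups did not overlap, GFP replicate 3 was far below the others, and the library labelled GFP1 was in the middle of the GFP group and not near SRF-OE. Mean CPM in SRF-OE was 1776 ± 190.1 (SD, n = 2), against 685 ± 510 (SD, n = 3) in GFP, and the log2 fold change was 1.37 (standard error 0.66) with the 5 libraries and 1.38 (standard error 0.78) without the library labelled GFP1. Within GFP the highest library was 6.75 times the lowest, while the SRF-OE libraries differed by 1.16 times. SRF-OE replicate 2 was 1.37 times GFP replicate 2, and SRF-OE replicate 3 was 10.8 times GFP replicate 3. The SD of log2 CPM among GFP libraries was 1.42, and 0.657% of the 8523 genes had one as large. An antisense gene, Gm13054, overlaps Nppa, and the library kit does not mark strand, so reads from the pair cannot be told apart.

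Atrial markers varied between the same libraries. The 8 atrial markers, led by the atrial myosin light chain gene Myl7, summed to 791 and 495 CPM in SRF-OE and to 252, 588 and 22.5 CPM in GFP replicates 1, 2 and 3, which is the order of Nppa within GFP. Myl7 was at 455 and 289 CPM in SRF-OE and at 125, 284 and 1.18 CPM in GFP. Sln, which encodes the atrial calcium pump regulator sarcolipin, was at 64.8 CPM in SRF-OE replicate 2 and at 74.0 CPM in GFP replicate 2, but at 2.71, 8.84 and 0.237 CPM in SRF-OE replicate 3 and GFP replicates 1 and 3. Bmp10, an atrial growth factor, divided the libraries in the same way, with 38.7 and 34.8 CPM in the libraries numbered 2, 3.99 CPM in the library labelled GFP1 and 0 counts in SRF-OE replicate 3 and GFP replicate 3. In the 2 libraries where Bmp10 was at 0, Nppa was at 1910 CPM in SRF-OE and at 177 CPM in GFP. These 2 libraries were not alike in other atrial markers. Myl7 was at 289 against 1.18 CPM and Myl4 at 191 against 6.08 CPM, in the direction of Nppa. Stard10 went the other way, at 6.43 against 12.7 CPM. In the 2 libraries with high Sln and Bmp10, Nppa was at 1641 CPM in SRF-OE and 1196 CPM in GFP. By Xist and Y-linked genes those 2 libraries came from females and the other 3 from males. The apex that the study's methods describe is ventricular tissue. The part of atrial cells in the Nppa difference was not tested.

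**Figure D2:**
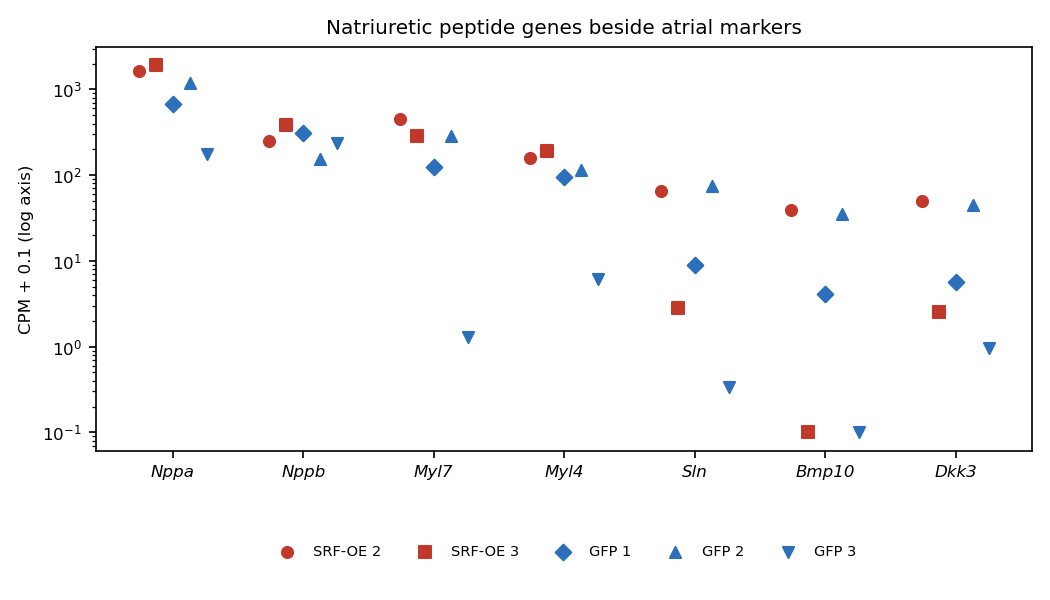
The vertical axis is CPM plus 0.1 on a log scale, and each symbol is 1 library, red for SRF-OE and blue for GFP. Sln, Bmp10 and Dkk3 are high only in SRF-OE replicate 2 and GFP replicate 2, at 64.8 and 74.0 CPM for Sln. Nppa and the atrial marker Myl4 are highest in SRF-OE replicate 3, and Nppb keeps within 155 to 385 CPM.

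Nppb, which encodes brain natriuretic peptide and lies 13516 bp upstream of Nppa on the same strand (chromosome 4, 147985786 to 147987205), moved less than its neighbour. It was at 249 and 385 CPM in SRF-OE and at 307, 155 and 236 CPM in GFP replicates 1, 2 and 3. The library labelled GFP1 lay between the SRF-OE libraries, and both SRF-OE libraries were above GFP replicates 2 and 3, SRF-OE replicate 2 only slightly above GFP replicate 3. The means were 317 ± 96.1 CPM (SD, n = 2) and 232 ± 76.0 CPM (SD, n = 3), with a log2 fold change of 0.45 (standard error 0.31), or 0.71 (standard error 0.28) without the library labelled GFP1. It was 0.092 without SRF-OE replicate 3 and 0.23 without GFP replicate 2. GFP replicate 3, the lowest library for Nppa, was not the lowest for Nppb, and the profiles of the pair differed by a root mean square of 1.24. The genes most like Nppb were Dpysl4, Aplf and Isg20, at 0.021 to 0.072, while the 3 most like Nppa, Cdh3, Grhl3 and Gm20257, at 0.044 to 0.33, were all under 1 CPM in every library and rest on few counts.

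The genes that process and receive the natriuretic peptides were divided. Of 10 listed, 9 were tested and 0 passed an adjusted p under 0.05 (edgeR's quasi-likelihood test, adjusted over all genes) with the 5 libraries, in either direction, with 0 higher and 1 lower before adjustment. Among all 13754 genes tested in that fit, 873 were higher and 1044 lower before adjustment. Over the 6 pathway lists DESeq2 called 1 gene higher and 5 lower with the 5 libraries. Without the library labelled GFP1, Npr3 and Pde5a were higher and Mme was lower. Npr3, the clearance receptor, was at 13.4 and 26.3 CPM in SRF-OE, 15.1 CPM in the library labelled GFP1, and 3.90 and 3.24 CPM in GFP replicates 2 and 3, a log2 fold change of 1.41 with the 5 libraries and 2.47 (standard error 0.37, adjusted p = 0.047) without that library. Pde5a, which breaks down the messenger cyclic GMP, was at 8.85 and 18.5 CPM in SRF-OE and at 8.13, 1.06 and 1.11 CPM in GFP. On the log2 scale it had 1.97 and then 3.67 (standard error 0.45, adjusted p = 0.042 from edgeR). Mme, the peptidase neprilysin that degrades the peptides, was at 4.05 and 3.24 CPM in SRF-OE and 7.51, 11.8 and 13.8 CPM in GFP, a log2 fold change of -1.60 and then -1.81 (standard error 0.24, adjusted p = 0.047). Corin, the protease that cuts the Nppa precursor, was at 138 and 66.3 CPM in SRF-OE and at 118, 272 and 234 CPM in GFP. Without the library labelled GFP1 its log2 fold change was -1.30, with an adjusted p of 0.076 from edgeR. The median log2 fold change of the 9 genes was 0.39 with the 5 libraries and 0.69 without the library labelled GFP1, beside 0.030 and 0.035 for all genes tested.

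Ankrd1, which encodes a stretch-responsive repeat protein (CARP) that binds titin and also enters the nucleus, was the other gene with no overlap between the groups. It lies on chromosome 19 (36111965 to 36119844, minus strand). It was at 1281 and 2105 CPM in SRF-OE replicates 2 and 3, and at 1121, 577 and 636 CPM in GFP replicates 1, 2 and 3. The library labelled GFP1 was close below SRF-OE replicate 2, and the other GFP libraries lay close together at a lower level. Mean CPM in SRF-OE was 1693 ± 582 (SD, n = 2), against 778 ± 299 (SD, n = 3) in GFP. The log2 fold change was 1.12 (standard error 0.35) with the 5 libraries and 1.49 (standard error 0.26) without the library labelled GFP1. By number, SRF-OE replicate 2 was 2.22 times GFP replicate 2, and SRF-OE replicate 3 was 3.31 times GFP replicate 3. Its nearest profiles were those of Hist1h1c, a linker histone, 1700101I11Rik and Myl6, a non-muscle myosin light chain, with root mean square differences of 0.061 to 0.069. Hist1h1c was at 113 and 206 CPM in SRF-OE and at 109, 53.0 and 56.9 CPM in GFP.

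Ankrd2, the paralog of Ankrd1 that is best known from skeletal muscle, was not detectable at this depth (chromosome 19, 42035917 to 42045111). Its counts were 1 and 2 in SRF-OE and 1, 1 and 0 in GFP, all under the floor of 3 counts, which is 0.131 to 0.237 CPM in these libraries. It did not pass the filter on low counts, and no fold change is given. No other member was left out, so 7 members enter the counts that follow.

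Xirp1 and Xirp2 encode the Xin repeat proteins of the intercalated disc, which bind actin filaments. Xirp1 (chromosome 9, 120013755 to 120023598) was at 583 and 999 CPM in SRF-OE and at 804, 630.1 and 707 CPM in GFP replicates 1, 2 and 3. The SRF-OE libraries enclosed the GFP libraries on both sides. Xirp2 (chromosome 2, 67446000 to 67526620) was at 195.5 and 465 CPM in SRF-OE and at 302, 162 and 238 CPM in GFP. Again SRF-OE replicate 3 was highest, but SRF-OE replicate 2 lay inside the GFP range. The log2 fold change was 0.15 (standard error 0.25) for Xirp1 and 0.50 (standard error 0.40) for Xirp2, and 0.25 (standard error 0.26) and 0.73 (standard error 0.41) without the library labelled GFP1. Without SRF-OE replicate 3 they turned to -0.30 and -0.27. Cx3cr1 overlaps Xirp1 on the same strand, and the antisense gene Gm13601 overlaps Xirp2, so some reads at these genes are uncertain. Nearest in profile were 1810029B16Rik, Lnx1 and Stk40 to Xirp1 (0.034 to 0.044), and Slc35e4, Hr and Inpp5j to Xirp2 (0.081 to 0.094).

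Csrp3, the muscle LIM protein of the Z-disc, was the steadiest member among the GFP libraries. The gene (chromosome 7, 48830398 to 48848051) was at 1516 and 2386 CPM in SRF-OE and at 1913, 1683 and 1753 CPM in GFP. The SRF-OE libraries again lay on either side of all 3 GFP libraries. The means were 1951 ± 615 CPM (SD, n = 2) and 1783 ± 118 CPM (SD, n = 3), and the log2 fold change was 0.13 (standard error 0.24), 0.19 (standard error 0.25) without the library labelled GFP1, and -0.24 without SRF-OE replicate 3. The SD of log2 CPM among GFP libraries was 0.094, against a median of 0.166 over the 8523 genes. Its nearest profiles were Usp45, Slc25a17 and Psmd11, at 0.021 to 0.040. Xirp1 and Csrp3 were the closest pair of members, with a difference of 0.066, ahead of Nppb and Xirp2 at 0.20.

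**Figure D3:**
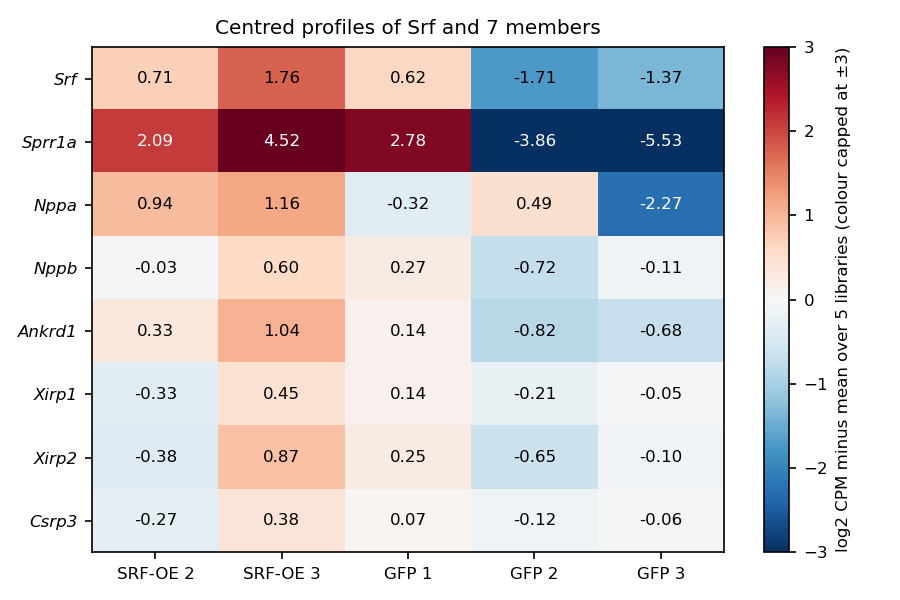
Rows are Srf and the 7 members with enough counts, columns are libraries, and each cell gives log2 CPM minus the gene's mean over the 5 libraries, with red for higher and blue for lower and the colour capped at 3. SRF-OE replicate 3 is the highest column in every row, up to 4.52 for Sprr1a, and Nppa is the only row of a member in which the library labelled GFP1 is below 0, at -0.32.

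Compared per length, as CPM per kb of the gene lengths in the table, Csrp3 and Nppa were the most abundant members and Sprr1a was among the least. Mean levels in GFP were 1832 ± 121 for Csrp3, 827 ± 615 for Nppa, 441 ± 169 for Ankrd1, 298 ± 97.5 for Nppb, 122 ± 14.9 for Xirp1, 19.5 ± 5.84 for Xirp2 and 14.1 ± 24.1 for Sprr1a (CPM per kb, SD, n = 3). The Sprr1a mean rests on the library labelled GFP1, at 41.9 CPM per kb, with 0.290 and 0 in GFP replicates 2 and 3. Neighbours in this order overlapped between libraries for Nppa and Ankrd1, Ankrd1 and Nppb, and Xirp2 and Sprr1a, while the other neighbours did not overlap. In SRF-OE Nppa, at 2142 ± 229 CPM per kb (SD, n = 2), stood above Csrp3 at 2005 ± 633, with overlapping libraries, and Sprr1a, at 83.4 ± 81.2, stood above Xirp2 at 27.6 ± 15.9, where the libraries also overlapped.

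Counted over the members, SRF-OE replicate 3 had the highest CPM of the 5 libraries for 7 of 7, whereas it was the highest for 27.9% of all genes tested. Its log2 difference from SRF-OE replicate 2 was 0.22 for Nppa, 0.63 to 0.78 for Nppb, Csrp3, Ankrd1 and Xirp1, 1.25 for Xirp2 and 2.43 for Sprr1a, beside a median of 0.048 over the 8523 genes. Srf was also highest in this library, at 748 CPM. Both SRF-OE libraries were above all 3 GFP libraries for 2 of 7 members, Nppa and Ankrd1, and for 16.1% of genes tested. Both were above GFP replicates 2 and 3 for 4 of 7, with Sprr1a and Nppb added, and for 30.8% of genes.

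With the 5 libraries, edgeR called 0 members and 0% of 13754 genes higher, and 0 members and 0% lower. Before adjustment, 873 genes had a p under 0.05 in the higher direction and 1044 in the lower, 1 member among them. DESeq2 called 11 genes higher and 213 lower, with Ankrd1 as the only member. The share of genes that DESeq2 called was not counted. The study, with DESeq2 and the same adjusted cutoff of 0.05, reports many more genes higher. Without the library labelled GFP1, 2 of 7 members, Sprr1a and Ankrd1, were among the 1.98% of 13397 genes called higher, and 0 were among the 0.97% called lower. Both calls lay just under the cutoff, with adjusted p-values from edgeR of 0.0473 for Sprr1a and 0.0499 for Ankrd1. With the replicate number as a block, in which the library labelled GFP1 has no partner and adds nothing to the difference, 3 of 7, Sprr1a, Ankrd1 and Nppb, were among the 4.23% called higher. The contrast had already been seen when the members were chosen, and nothing is read from these counts. The median log2 fold change of the 7 members was 0.50 with the 5 libraries and 0.73 without the library labelled GFP1.

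**Figure D4:**
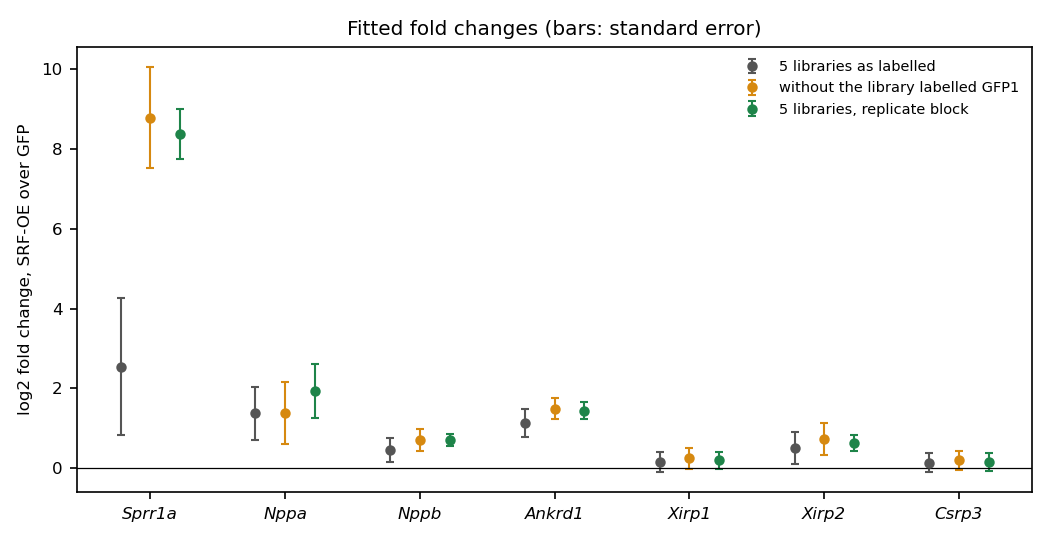
The vertical axis is the log2 fold change of SRF-OE over GFP from edgeR, points are genes by fit and bars are the standard error. Sprr1a shifts from 2.54 with the 5 libraries to 8.79 without the library labelled GFP1, while Xirp1 and Csrp3 stay near 0 in all 3 fits.

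The same values were set against the cardiomyocyte markers, since their sum was lower in SRF-OE. Divided by the summed counts of the 8 markers instead of the library total, in the 5 libraries, the log2 ratio of group means went from 0.13 to 0.63 for Csrp3, from 0.15 to 0.64 for Xirp1, from 1.12 to 1.56 for Ankrd1 and from 1.37 to 1.83 for Nppa. The 7 members were already above 0 and the divisor is lower in both SRF-OE libraries. Their kept direction and further rise therefore follow from the scaling. The markers include myofibril genes, which the study reports as lowered by SRF overexpression, so their sum is not a neutral measure of CM content.

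Other genes of the Z-disc and of the titin filament did not share one direction. Of 18 tested, 0 passed with the 5 libraries in edgeR, while 1 was higher and 6 lower before adjustment. The background for this list and the lists below is 873 genes higher and 1044 lower before adjustment, of 13754 tested. Without the library labelled GFP1, Fhl1 and Csrp1 were higher and Nebl, which encodes a nebulin relative of the Z-disc, was lower. Nebl was at 85.8 and 74.9 CPM in SRF-OE and at 108, 150.01 and 143 CPM in GFP, with a log2 fold change of -0.74 and then -0.86 (adjusted p = 0.047 from edgeR). Fhl1, a LIM protein of the titin spring region that is linked to hypertrophy, was at 703 and 2871 CPM in SRF-OE, 1731 CPM in the library labelled GFP1, and 120 and 138 CPM in GFP replicates 2 and 3. Its log2 fold change was 1.43 with the 5 libraries and 3.80 (standard error 0.66, adjusted p = 0.0499 from edgeR) without that library. Csrp1, a relative of Csrp3 found in smooth muscle, was at 119 and 255 CPM in SRF-OE and at 103, 25.7 and 24.9 CPM in GFP, with 1.86 and 2.89 (adjusted p = 0.043 from edgeR) on the log2 scale. Fhl2, the heart's main LIM-only protein, was at 1892 and 1212 CPM in SRF-OE and at 2025, 2777 and 3511 CPM in GFP, and Myot, a Z-disc actin cross-linker, had a log2 fold change of -0.78. Neither passed. The median of the 18 was -0.22, and -0.28 without the library labelled GFP1.

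The partners of the Xin proteins at the intercalated disc had small differences. Of 11 tested, 0 passed in either fit in edgeR, 0 had a p under 0.05 before adjustment with the 5 libraries, and the median log2 fold change was -0.11 with the 5 libraries and -0.17 without the library labelled GFP1. The 2 highest were Enah at 0.36 and Flnc, filamin C, at 0.26, and the 2 lowest were Vcl, vinculin, at -0.30 and Cdh2, N-cadherin, at -0.32.

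Other load and hypertrophy genes lay mostly above 0. Of 18 listed, 17 were tested, 14 had a positive log2 fold change and 0 passed with the 5 libraries in edgeR, while 4 were higher and 1 lower before adjustment. Without the library labelled GFP1 only Gdf15 passed, a secreted stress cytokine at 8.79 and 18.4 CPM in SRF-OE and 6.04, 1.38 and 2.05 CPM in GFP, with a log2 fold change of 2.09 and then 3.02 (standard error 0.45, adjusted p = 0.047 from edgeR). Hspb1, a small heat shock protein, was at 376 and 990.3 CPM in SRF-OE and at 431, 151 and 173 CPM in GFP, with 1.44 and then 2.08 (adjusted p = 0.059 from edgeR). The 2 lowest were Thbs4 at -0.50 and Cyr61 at -0.45. The median of the 17 was 0.67 with the 5 libraries and 1.04 without the library labelled GFP1. For all genes tested the medians were 0.030 and 0.035. The share of all genes above 0 was not counted, and the list was chosen with earlier results of these data known. The 14 genes above 0 are therefore a description only.

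The gp130 cytokines and their receptors, a pathway known to raise Sprr1a and Nppb, had a median near that of all genes. Of 15 listed, 11 were tested with the 5 libraries and 10 without the library labelled GFP1, and 0 passed in either in edgeR, with 0 higher and 1 lower before adjustment in the 5 libraries and a median log2 fold change of -0.065 in each. Lif, a gp130 cytokine, was at 1.85 and 4.63 CPM in SRF-OE and at 1.62, 0.550 and 0.079 CPM in GFP, with a log2 fold change of 2.04 and then 3.19 (adjusted p = 0.073 from edgeR). Osmr, a receptor, had 0.31, and the lowest were Il11ra1 at -0.59 and Ctf1, cardiotrophin, at -0.54.

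**Figure D5:**
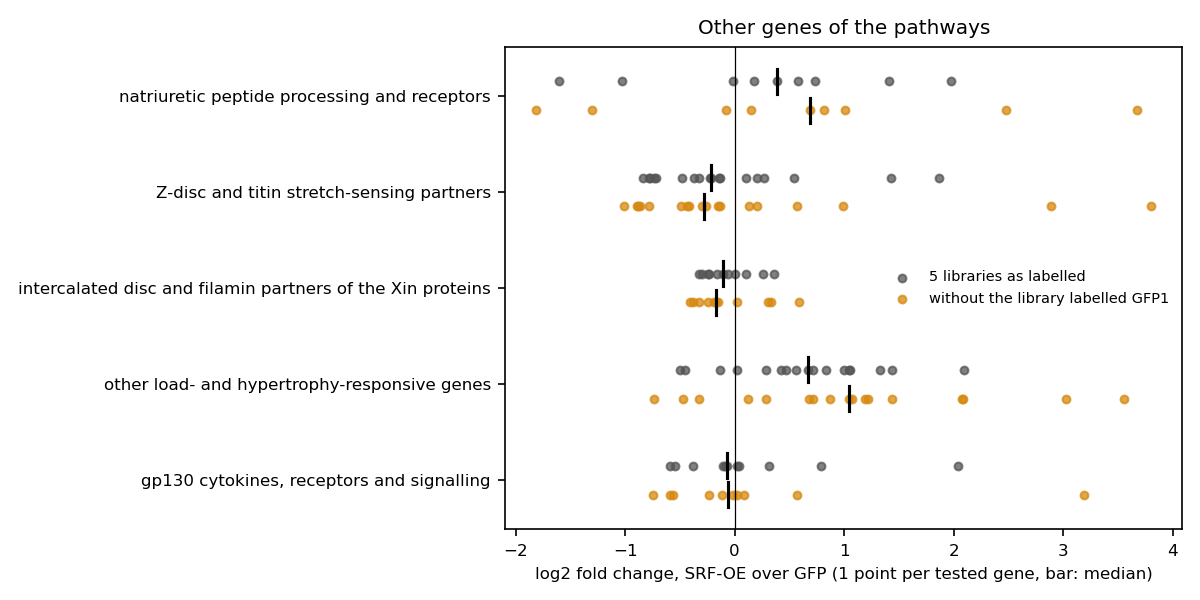
The horizontal axis is the log2 fold change of SRF-OE over GFP, each point is 1 tested gene of a list, grey with the 5 libraries and orange without the library labelled GFP1, and the bars are medians. Of the 5 lists drawn, which leave out the Sprr and envelope list with its 1 tested gene, the load and hypertrophy genes have the highest median, 0.67 and 1.04, and the points furthest right, Fhl1 at 3.80 and Pde5a at 3.67, are those of the fit without the library labelled GFP1.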

How the data were processed

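PolyA RNA-seq libraries of GFP+ CMs, sorted at P14, were compared. Per the labels and the study's methods, the authors aligned single-ended reads to mm10 with STAR 2.5.3a, counted them per gene with FeatureCounts (Subread 1.5.2) and deposited raw counts without normalization. Settings for strand and multiply mapped reads are not given in the sources used here. Libraries were amplified by PCR without molecular identifiers, so intervals and floors cover counting error only. The column headed SRF-OE replicate 1 was taken as gene length only: its values include 0 zeros, and for 52.3% of 20929 genes they lie within 5% of the annotated exon length. Tests planned for 6 libraries used 5, with 2 in SRF-OE and 3 in GFP, and 0 columns of counts were left unused.

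All genes were fitted with edgeR 4.0.16 in R 4.3.3 (filterByExpr, TMM, glmQLFit, glmQLFTest) with Benjamini-Hochberg adjustment and a cutoff of 0.05. The standard error is the log2 fold change divided by the root of the quasi-likelihood F. Profiles used a prior count of 2. The sources do not say whether a library is 1 animal or a pool, so p-values measure only the spread between these samples. The smallest p of an exact permutation test is 0.1 for 2 libraries against 3, and 0.333 for 2 against 2. The fit was tested on simulated data.

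The 8 members and all lists (6 of pathway genes, 9 of markers) were chosen with earlier results of these data known. Named besides the members and Srf were the 5 genes nearest in profile to Sprr1a and the 3 nearest to each other member, the 2 highest and 2 lowest log2 fold changes of each pathway list among genes averaging at least 1 CPM, and the most abundant gene of each marker list. Further markers, list genes past the cutoff, other Sprr and envelope genes, and the genes under Other observations were named after their values were seen. Alternatives were DESeq2 1.42.0, other scalings and filters, the replicate number as a block, and leaving out each library. Repeating them without the library labelled GFP1, and scaling to cardiomyocyte markers, were added after seeing the data.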

Additional observations from a re-analysis of the deposited data

How the results depend on the processing

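With 2 SRF-OE libraries, single libraries decide most values. Leaving out 1 library at a time, the number of members called higher ranged from 0 to 2, of genes called higher from 0 to 265 and lower from 0 to 130, and of other pathway genes from 0 to 5 higher and 0 to 2 lower; the upper ends came without the library labelled GFP1. The log2 fold change of Xirp1 ranged from -0.30 to 0.48, of Xirp2 from -0.27 to 0.99 and of Csrp3 from -0.24 to 0.42, reversed without SRF-OE replicate 3 and highest without SRF-OE replicate 2. Without SRF-OE replicate 3 Sprr1a was at 0.85, Ankrd1 at 0.71 and Nppb at 0.092 on the log2 scale. Nppb was at 0.23 without GFP replicate 2, and Nppa ranged from 0.92 without GFP replicate 3 to 2.05 without GFP replicate 2. A lone SRF-OE library is there assumed to vary like the GFP group.

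DESeq2 called 1 member higher, 11 genes higher and 213 lower, and 1 pathway gene higher and 5 lower, and it gave no adjusted p to Sprr1a. With the replicate number as a block, 3 members, 582 genes and 12 pathway genes were higher and 432 and 4 lower. The numbers were not taken to pair the libraries: only 2 pairs exist, and, across genes, the departures of libraries with 1 number from their group means had a correlation of 0.37 for number 2 and -0.060 for number 3 in the 5 libraries, and of 0.20 without the library labelled GFP1. Without the library labelled GFP1, the 2 members called became 0 with upper quartile scaling and 5 with no filter on low counts. They became 0 with at least 10 counts in every library, which removes Sprr1a. With no filter the standard error of Sprr1a fell from 1.27 to 0.33. The share of all genes called in these 3 settings was not counted, so nothing is read about the members from these counts. Scaling to the cardiomyocyte markers moved the log2 ratio of Csrp3 to 0.63. For the differences between these settings, other than the gene removed by the filter, the cause was not tested.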

Other observations

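Acta1, the skeletal alpha-actin gene that the heart uses before birth and again under load, was, like Sprr1a, highest in SRF-OE replicate 3, then in the library labelled GFP1, then in SRF-OE replicate 2. SRF-OE replicates 2 and 3 had 2673 and 12358 CPM, against 7730 CPM in the library labelled GFP1, and 442 and 842 CPM in GFP replicates 2 and 3. Its log2 fold change was 1.32 (standard error 1.22) with the 5 libraries and 3.56 (standard error 0.77, adjusted p = 0.061 from edgeR) without the library labelled GFP1, and it did not pass in either fit. Myh7, the beta myosin heavy chain gene that is often read beside it as a fetal gene, was at 281 and 224 CPM in SRF-OE and at 207, 164 and 252 CPM in GFP, with a log2 fold change of 0.28 (standard error 0.21). Ctgf, a matricellular growth factor, was at 188 and 324 CPM in SRF-OE and at 180.1, 105 and 84.5 CPM in GFP, with 1.06 and then 1.44 (adjusted p = 0.053 from edgeR) on the log2 scale.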
